A study of Homo sapiens with 24 samples.

Results

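The 10 integrin subunit genes ITGA2, ITGA3, ITGA5, ITGA6, ITGAV, ITGB1, ITGB2, ITGB3, ITGB4 and ITGB5 were followed over 24 Affymetrix expression arrays. All arrays read A2780, an established line from a human ovarian cancer. They are 10 of the 11940 genes read on these arrays, and each gene is given by 1 probe set, the one of highest mean signal over the 24 arrays. The cells carried the empty vector pcDNA (12 arrays) or expressed Rab25 (12 arrays), and each line is 1 transfected line, so whatever else set these lines apart is part of every difference between them. All cells had been grown in RPMI medium and starved of serum for 8 h. Each line had 4 arrays of starved cells and 2 arrays each of cells given EGF at 10 ng/ml, IGF at 10 ng/ml, TGF beta at 5 ng/ml or fetal bovine serum (FBS) at 5%. Every group was split evenly over experiment 1 and experiment 2. The treatment protocol gives the exposure as 8 h in experiment 1 and 24 h in experiment 2, while the sample names give 24 h in both, so time and experiment cannot be told apart here. The labels do not say whether arrays of a group came from separate cultures, and p values measure the spread between these arrays.

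Integrins are receptors made of 1 alpha and 1 beta chain that hold cells to the extracellular matrix and signal through focal adhesions. The beta chain ITGB1 pairs with many alpha chains, among them the collagen receptor ITGA2, the laminin receptors ITGA3 and ITGA6, the fibronectin receptor ITGA5, and ITGAV. ITGAV also pairs with ITGB3 and ITGB5 to bind vitronectin and other matrix proteins with an RGD motif. ITGB4 pairs with ITGA6 in hemidesmosomes, and ITGB2 pairs with the leukocyte chains ITGAL, ITGAM and ITGAX. Integrins are taken up and returned to the membrane through endosomes, and the GTPase Rab25, a relative of Rab11, is known to bind the beta 1 chain and promote recycling of the ITGA5 and ITGB1 receptor. The arrays measured transcripts, so neither surface protein nor recycling was observed. A bulk signal also cannot separate fewer cells that express a gene from less RNA per cell.

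The upstream sequences of 4 subunits that were lower in Rab25 cells are shown beside that of ITGB1, which was not past the threshold. The promoter table, from RefSeq on GRCh38.p14, held 6 of the 10 genes, and the 250 bases before the annotated start were searched on both strands. Capitals mark matches to the GC box GGGCGG, the AP-1 site TGANTCA, the SMAD element GTCTAGAC, the CAGA box CAGACA and the TATA box TATAAA. Sequences run from 5' to 3' on the gene's strand.
ITGA2 promoter, chr5:52989102-52989351, plus strand: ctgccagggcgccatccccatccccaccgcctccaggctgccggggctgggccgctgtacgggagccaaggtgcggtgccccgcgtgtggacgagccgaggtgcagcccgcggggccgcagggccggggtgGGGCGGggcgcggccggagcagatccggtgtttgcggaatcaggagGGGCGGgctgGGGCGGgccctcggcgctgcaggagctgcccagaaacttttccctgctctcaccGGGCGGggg
ITGA5 promoter, chr12:54419267-54419516, minus strand: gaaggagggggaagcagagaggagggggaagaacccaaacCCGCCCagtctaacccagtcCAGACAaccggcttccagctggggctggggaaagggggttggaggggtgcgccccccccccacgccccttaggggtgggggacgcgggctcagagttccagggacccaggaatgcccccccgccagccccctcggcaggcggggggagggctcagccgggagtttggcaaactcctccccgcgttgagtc
ITGAV promoter, chr2:186589806-186590055, plus strand: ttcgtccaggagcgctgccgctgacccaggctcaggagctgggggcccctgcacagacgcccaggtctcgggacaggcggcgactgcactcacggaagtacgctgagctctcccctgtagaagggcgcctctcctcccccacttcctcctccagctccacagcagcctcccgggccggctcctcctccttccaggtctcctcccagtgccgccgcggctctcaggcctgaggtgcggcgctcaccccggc
ITGB5 promoter, chr3:124901419-124901668, minus strand: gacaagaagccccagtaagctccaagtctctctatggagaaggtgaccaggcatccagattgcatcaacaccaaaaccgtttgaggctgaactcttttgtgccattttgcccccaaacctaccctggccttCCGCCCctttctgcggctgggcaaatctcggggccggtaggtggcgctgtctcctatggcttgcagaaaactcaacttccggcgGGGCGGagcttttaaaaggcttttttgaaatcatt
ITGB1 promoter, chr10:32958231-32958480, minus strand: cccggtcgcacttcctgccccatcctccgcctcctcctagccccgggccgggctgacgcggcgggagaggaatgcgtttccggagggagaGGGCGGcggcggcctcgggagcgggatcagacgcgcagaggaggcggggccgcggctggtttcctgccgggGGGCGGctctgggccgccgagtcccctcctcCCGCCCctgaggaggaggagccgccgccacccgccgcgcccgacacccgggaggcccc

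The GC box was found 4 times before ITGA2, 3 times before ITGB1, 2 times before ITGB5 and 1 time before ITGA5, and not before ITGAV or ITGA6. It stood in 42.6% of 34788 promoters of the same length. ITGA5 also held 1 CAGA box (13.6% of promoters) and ITGA6 held 1 TATA box (10.8%). Neither the AP-1 site (6.59% of promoters) nor the SMAD element (0.178%) was found in the 6 windows. So the 4 lower genes shared none of these 5 sets of letters as a group, and the GC box was as much a feature of ITGB1. The GC content was 76.4% before ITGA2, 70.0% before ITGA5, 70.8% before ITGAV and 52.8% before ITGB5, against a median of 58.0% over all promoters. It was 78.4% before ITGB1 and 50.8% before ITGA6, neither of which passed the threshold between the lines. A match of letters is a description and not evidence of binding.

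The lines carried what their labels say. RAB25 ran from 4.90 to 5.60 on pcDNA arrays and from 8.18 to 9.08 on Rab25 arrays, with no overlap. The medians of the single arrays lay between 7.02 and 7.35 in log2 units. KRT8, KRT18, KRT7, PAX8, VIM and CDH2 all lay at percentile 89.4 of the genes or higher. The other genes on this list of A2780 and epithelial identity were low. MUC16 and EPCAM, often read as ovarian and epithelial markers, lay at percentiles 1.45 and 8.84. KRT19, CDH1, MUC1 and WT1 lay between percentiles 14.7 (KRT19) and 41.9 (WT1). As a measure of RNA quality, the gap between 3' and 5' control probe sets was smaller in Rab25 cells in 8 of 10 matched sets for actin (means of 0.781 in Rab25 and 0.881 in pcDNA) and in 1 of 10 for GAPDH. The part of RNA quality in the line differences below was not tested. Both Rab25 FBS arrays stood apart. The mean of 10 fibroblast markers was 8.56 to 9.86 there against 6.60 to 7.26 on the other 22 arrays, and that of 9 macrophage markers 7.03 to 7.21 against 6.44 to 6.66. The mean of 15 breast epithelium markers was 6.31 to 7.12 against 5.82 to 6.13, and that of 9 adipocyte markers 5.83 to 6.58 against 5.51 to 5.79. COL3A1 was at 12.76 and 11.00 on these arrays and at most 6.60 on any other, and SCGB2A2, a mammary secretory gene, was at 8.57 and 8.84 against at most 5.90. These means rest on part of each list. On neither array did the fibroblast markers DCN, PDGFRA, PDGFRB, THY1 and FAP exceed the highest of the other arrays. The same held for CSF1R, AIF1 and LAPTM5 among macrophage, ESR1, PGR and KRT5 among breast and ADIPOQ, LEP and PLIN1 among adipocyte markers. Some rose on 1 array only, such as AGR2 (9.68 and 5.14) and LPL (5.36 and 7.35). The calls of the subunits between the lines and between the experiments are therefore also given without both arrays.

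The mean signals of the 10 subunits ranged from 5.83 for ITGB4 to 14.06 for ITGB1. Signals of different probe sets depend on their probes, so this range is not an order of transcript number, but each signal can be placed among all genes. ITGB1 (chromosome 10, 32900318 to 32958230, all gene positions on GRCh38.p14) lay at percentile 99.0. The signals of ITGB5 (chromosome 3, 124761948 to 124901418), ITGAV (chromosome 2, 186590056 to 186680901), ITGA3 (chromosome 17, 50056110 to 50090481), ITGA6 (chromosome 2, 172427336 to 172506459) and ITGA5 (chromosome 12, 54395261 to 54419266) lay at percentiles 90.4, 88.4, 87.4, 87.2 and 82.2. ITGA2 (chromosome 5, 52989352 to 53094779) was at percentile 58.1, ITGB2 (chromosome 21, 44885953 to 44928815) at 47.8 and ITGB3 (chromosome 17, 47253827 to 47313743) at 42.4. ITGB4 (chromosome 17, 75721459 to 75757818) was at percentile 27.9, with the mean signals of all 4 of its probe sets under 6 on the log2 scale, so the data say little about it. ITGB1 was among the steadiest genes on the arrays, with an SD of 0.066 over the 24 arrays (percentile 1.49 of all SDs). ITGB2 was among the most variable, with an SD of 0.690 (percentile 98.4).

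**Figure D1:**
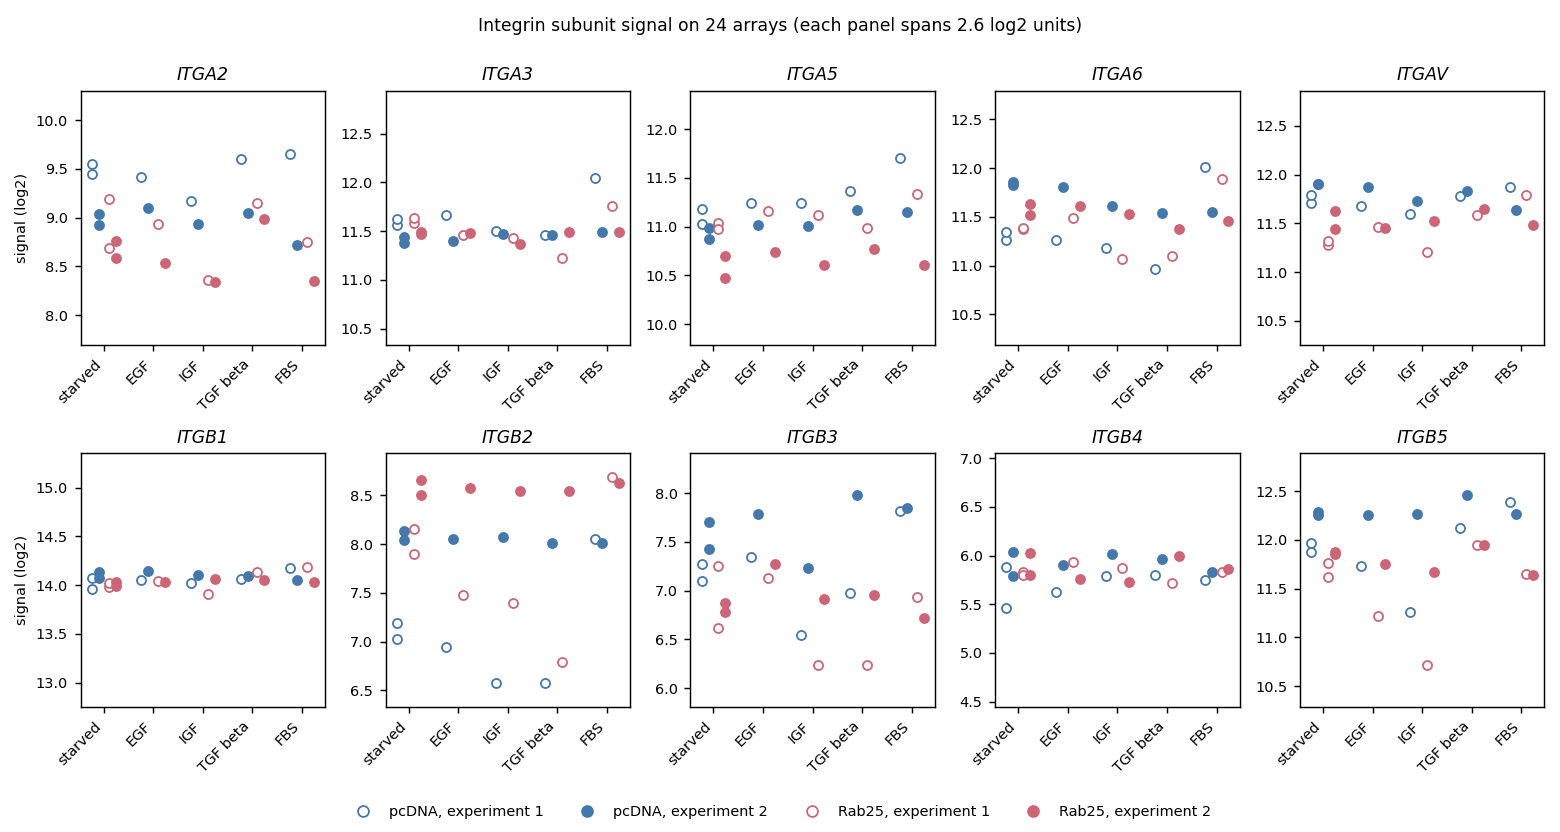
Log2 signal of the 10 subunits (vertical axis) on 24 arrays by condition (horizontal axis), with pcDNA cells in blue, Rab25 cells in red, experiment 1 as open and experiment 2 as filled circles; all panels span the same number of log2 units. ITGB1 lies flat near 14.06, while ITGB2 runs from 6.57 to 8.69 and its filled circles form 1 level per line.

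Over all conditions, 6 of the 10 subunits differed between the lines. Signals of ITGA2, ITGA5, ITGAV, ITGB3 and ITGB5 were lower in Rab25 cells and that of ITGB2 was higher, by 1.20-fold to 1.53-fold. Each of the 6 kept its direction in all 10 matched sets of condition and experiment. These sets are the arrays that gave the calls, so this is a description and no separate support. The share of all genes with such a shared direction was not counted. Of all genes tested, 24.7% passed the same threshold (Benjamini-Hochberg adjusted p under 0.05 in limma), 9.14% as higher and 15.5% as lower. The median difference of the 10 subunits was -0.168 and that of all genes -0.0141 on the log2 scale. Over 12 arrays against 12, the ranges of the lines overlapped for all 10 subunits, where 1.51% of all genes had no overlap. Quantile normalization and centring each array on its median kept all 6 calls and directions, although they raised the share of higher genes among all calls from 37.1% to 49.2% and 54.6%.

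Of the 10 subunits, the 4 chains of vitronectin and fibronectin receptors other than ITGB1, which are ITGAV, ITGB5, ITGB3 and ITGA5, were lower in Rab25 cells. ITGA4, ITGA8 and ITGB8, some of the further chains of such receptors, were dim (percentiles 8.10, 23.6 and 9.87). They differed by 0.07, 0.001 and 0.03 without passing. Among others, ITGA2B was lower by -0.15 and passed, while ITGB6 did not pass (-0.05 without both Rab25 FBS arrays). ITGAV, the alpha chain that pairs with ITGB3 and ITGB5, was read on 6 arrays of each line in each experiment. In experiment 1 its lowest, median and highest signals were 11.60, 11.74 and 11.87 in pcDNA and 11.21, 11.39 and 11.79 in Rab25 cells. In experiment 2 these were 11.63, 11.85 and 11.90 in pcDNA and 11.44, 11.51 and 11.65 in Rab25 cells. The Rab25 arrays lay lower in both experiments, and only the top of their range reached into that of pcDNA. ITGAV was 1.20-fold lower (log2 difference -0.27, SE 0.05, limma adjusted p = 0.00152), at -0.27 within experiment 1 and -0.26 within experiment 2.

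ITGB5, the beta chain that joins ITGAV in a vitronectin receptor, had a lowest, median and highest signal of 11.26, 11.92 and 12.39 in pcDNA and 10.71, 11.63 and 11.94 in Rab25 cells in experiment 1. In experiment 2 the same values were 12.25, 12.27 and 12.46 against 11.64, 11.81 and 11.94, and there the lines did not overlap. ITGB5 was 1.40-fold lower (log2 difference -0.49, SE 0.09, limma adjusted p = 7.63e-04), with -0.44 and -0.53 within the experiments. All of its 4 probe sets were lower, by -0.49, -0.52, -0.20 and -0.26, and all 4 passed the threshold over probe sets (limma adjusted p of 0.038 at most).

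ITGB3, the other partner of ITGAV and the platelet and osteoclast beta chain, ran from 6.54 to 7.82 (median 7.19) in pcDNA and from 6.24 to 7.25 (median 6.78) in Rab25 cells in experiment 1. In experiment 2 it ran from 7.23 to 7.98 (median 7.74) and from 6.72 to 7.28 (median 6.90), so the lines overlapped at their edges. It was 1.53-fold lower (log2 difference -0.61, SE 0.11, limma adjusted p = 6.00e-04), the largest difference among the 10 genes on this scale, and it was -0.48 and -0.74 within the experiments. This value rests on the choice of probe set. Of its 7 probe sets, that of highest signal gave -0.61 and the next -0.32 (limma adjusted p = 0.013 over probe sets), while the other 5, with mean signals of 5.05 to 6.47, lay between -0.06 and 0.04 and did not pass. The median of the 7 sets differed by -0.07 (limma adjusted p = 0.289). The platelet chain ITGA2B was at percentile 28.3, and 7 platelet and megakaryocyte markers had mean signals of 5.55 to 5.90 on all 24 arrays.

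ITGA5, the fibronectin receptor chain, ran from 11.03 to 11.70 (median 11.24) in pcDNA and from 10.98 to 11.34 (median 11.08) in Rab25 cells in experiment 1. In experiment 2 it ran from 10.87 to 11.18 (median 11.01) and from 10.48 to 10.77 (median 10.65), where the lines did not overlap. It was 1.23-fold lower (log2 difference -0.30, SE 0.05, limma adjusted p = 0.000567), with -0.21 and -0.39 within the experiments. Without the experiment as a block the difference was the same, but it did not pass (limma adjusted p = 0.0715).

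ITGA2, the collagen receptor chain, was lower as well. In experiment 1 its lowest, median and highest signals were 9.17, 9.50 and 9.66 in pcDNA and 8.36, 8.84 and 9.19 in Rab25 cells, and in experiment 2 they were 8.72, 8.99 and 9.09 against 8.34, 8.56 and 8.98. The ranges touched in experiment 1 and overlapped widely in experiment 2, where the Rab25 TGF beta array was the highest of its line. The gene was 1.42-fold lower (log2 difference -0.51, SE 0.07, limma adjusted p = 6.58e-05), with -0.64 and -0.38 within the experiments. Leaving out any 1 array kept the difference between -0.57 and -0.45.

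ITGB2, the leukocyte beta chain, was the 1 member that was higher in Rab25 cells. In experiment 2 its lowest, median and highest signals were 8.01, 8.05 and 8.14 in pcDNA and 8.51, 8.56 and 8.66 in Rab25 cells, a narrow step with no overlap. In experiment 1 they were 6.57, 6.98 and 8.06 against 6.79, 7.69 and 8.69, and the lines overlapped. ITGB2 was 1.49-fold higher (log2 difference 0.58, SE 0.14, limma adjusted p = 0.00703), with 0.63 and 0.53 within the experiments, and the call was lost without the experiment as a block (limma adjusted p = 0.204). Without both Rab25 FBS arrays, where the mean of the macrophage markers was raised, the difference was 0.56 (limma adjusted p = 0.00652). The chains with which ITGB2 pairs were low, with ITGAL, ITGAM and ITGAX at percentiles 14.6, 14.6 and 36.3. PTPRC, the pan-leukocyte marker, had a mean of 5.29 in pcDNA and of 5.37 on the other 10 Rab25 arrays, and the 9 lymphocyte and pan-leukocyte markers averaged 5.74 to 6.08 on pcDNA and 5.83 to 6.16 on these Rab25 arrays. Of these 9 markers, 3 were higher in Rab25 cells over all arrays (PTPRC by 0.15, CORO1A by 0.38 and CD53 by 0.18), where 9.14% of all genes were. Without both Rab25 FBS arrays 2 were higher (CORO1A by 0.32 and CD53 by 0.13), where 9.82% of all genes were. Of the 9 macrophage markers, 2 were higher (TYROBP and C1QB) and 1 lower over all arrays, where 9.14% and 15.5% of all genes were. Without both Rab25 FBS arrays 0 were higher and 1 lower (LAPTM5 by -0.21), beside 9.82% and 14.8% of all genes. The part of other cells in the ITGB2 difference was not tested.

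For the laminin receptor chains and for ITGB1 no difference between the lines passed the threshold. The log2 difference was -0.07 for ITGA3 (95% interval -0.19 to 0.05), -0.06 for ITGA6 (-0.26 to 0.13), -0.04 for ITGB1 (-0.11 to 0.04) and 0.01 for ITGB4 (-0.11 to 0.14). The interval of ITGB1 is the narrowest, and its signal on all 24 arrays lay between 13.91 and 14.19. ITGA3 lay between 11.22 and 12.05 and ITGA6 between 10.97 and 12.01, both highest on the pcDNA FBS array of experiment 1. Within experiment 2 alone ITGA6 differed by -0.16, and within experiment 1 by 0.04. Each treated group has 1 array within an experiment, so these are given as effect sizes only. No test compared the laminin with the vitronectin and fibronectin receptor chains as groups.

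**Figure D2:**
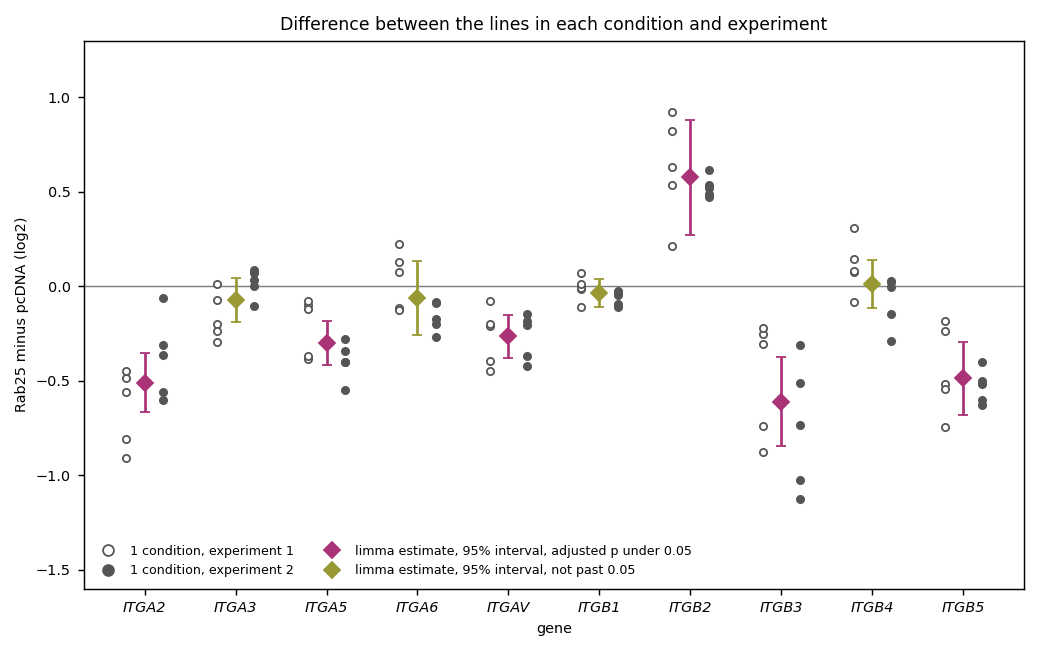
Log2 difference Rab25 minus pcDNA (vertical axis) for each subunit (horizontal axis), with 1 circle for each of 5 conditions in experiment 1 (open) and experiment 2 (filled), and the limma estimate with its 95% interval as a diamond. ITGA2, ITGA5, ITGAV, ITGB3 and ITGB5 have all 10 circles under 0 and ITGB2 has all 10 above 0.

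Fewer arrays a line can only narrow the ranges, so the share without overlap within 1 experiment cannot be smaller than over all arrays. In experiment 2, with 6 arrays a line, ITGA5, ITGB5 and ITGB2 did not overlap, 3 of 10 subunits, where 11.3% of all genes did not. In experiment 1 this was 0 of 10 subunits and 4.20% of all genes. Leaving out both Rab25 FBS arrays kept all 6 line calls, with -0.48 for ITGA2, -0.26 for ITGA5, -0.30 for ITGAV, -0.51 for ITGB3, -0.44 for ITGB5 and 0.56 for ITGB2.

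In starved cells alone, 4 arrays a line, 2 of the 10 subunits passed, both as lower, where 14.8% of all genes passed and 9.24% as lower. ITGAV was at 11.70, 11.79, 11.90 and 11.90 in pcDNA and at 11.27, 11.32, 11.63 and 11.44 in Rab25 cells, with no overlap, and was lower by -0.41 (SE 0.09, limma adjusted p = 0.00542). ITGA2 was at 9.45, 9.55, 9.04 and 8.93 in pcDNA and at 8.69, 9.19, 8.76 and 8.59 in Rab25 cells. It was lower by -0.43 (SE 0.12, limma adjusted p = 0.0251), the lines overlapped, and the call was lost without the pcDNA array 1-1, 1-2 or 2-1 or the Rab25 array 1-1 or 2-2 (limma adjusted p of 0.0545 to 0.0961, at -0.44 to -0.33). ITGB2 (0.71, limma adjusted p = 0.0592), ITGB3 (-0.49, 0.0863), ITGA5 (-0.22, 0.119) and ITGB5 (-0.32, 0.177) had the direction seen over all conditions and did not pass.

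The comparison of each growth factor with starved cells asked whether the subunits answer to the treatment over both lines and both experiments. With EGF, 0 of 10 subunits passed and 0 of all genes (0%), with 811 genes and 0 subunits at an unadjusted p under 0.05 in limma. The EGF differences lay between -0.20 for ITGB5 (95% interval -0.48 to 0.08) and 0.26 for ITGB3 (-0.08 to 0.60). With IGF, 0 of 10 passed (2.71% of all genes), and 3 had an unadjusted p under 0.05. These were ITGB5 at -0.46 (limma adjusted p = 0.0738), ITGA2 at -0.32 (0.123) and ITGB3 at -0.40 (0.227). With TGF beta, 0 of 10 passed (1.60% of all genes), and 2 had an unadjusted p under 0.05, ITGB2 at -0.47 (limma adjusted p = 0.422) and ITGA5 at 0.17 (0.475).

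With FBS, 1 of 10 subunits was higher over both lines, where 17.2% of all genes passed, 6.43% as higher. Both Rab25 FBS arrays, which stood apart in marker signals, are part of this comparison, and the part of other cells was not tested. ITGA5 was at 11.70 in experiment 1 and 11.15 in experiment 2 in pcDNA cells with FBS, against 11.19, 11.03, 10.87 and 10.99 when starved. In Rab25 cells it was at 11.34 and 10.60 with FBS against 11.04, 10.98, 10.48 and 10.70. The FBS arrays lay above the starved arrays of their line and experiment, except for the Rab25 array of experiment 2, which fell between its 2 starved arrays. The rise was 0.29 over both lines (SE 0.08, limma adjusted p = 0.0193) and 0.41 in pcDNA cells (SE 0.11, limma adjusted p = 0.0369), where it was the only 1 of 10 to pass (6.75% of all genes, 2.31% as higher). In the fit without both Rab25 FBS arrays, ITGA5 was again the only 1 to pass in pcDNA cells. It stood at 0.41 there (limma adjusted p = 0.0148), where 10.4% of all genes passed, 4.40% as higher. In Rab25 cells 0 of 10 passed (7.72% of all genes, and 0 of 10 and 2902 genes at an unadjusted p under 0.05 in limma), with ITGA5 at 0.17 (95% interval -0.07 to 0.41). The rise rests on experiment 1. It was 0.46 there and 0.12 in experiment 2 over both lines, and without the pcDNA FBS array of experiment 1 it was 0.24 (limma adjusted p = 0.148) and without the Rab25 FBS array of experiment 1 0.19 (0.154). In pcDNA cells alone it was 0.30 (0.497) without the pcDNA FBS array of experiment 1, and it missed the threshold without the starved pcDNA array 1-1, 1-2 or 2-1 or the starved Rab25 array 1-2 (0.35 to 0.42, 0.0505 to 0.0995).

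No response differed between the lines. For EGF, IGF, TGF beta and FBS, 0 of 10 subunits passed, where 0%, 0%, 0% and 0.209% of all genes did, and at an unadjusted p under 0.05 in limma there were 415, 253, 622 and 1315 genes and 0 subunits. The intervals are wide. For ITGB2 the difference in TGF beta response between Rab25 and pcDNA cells was -0.33 with a 95% interval of -1.22 to 0.55, and for ITGB3 in FBS response it was -0.51 with -1.19 to 0.18. For ITGB1 all 4 differences lay within intervals of -0.23 to 0.28.

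More subunits passed between the experiments than with any treatment. The comparison of experiments used all arrays and each treatment comparison fewer, so these counts do not compare sizes of effect. Experiment 2 was higher than experiment 1 for ITGB2 (0.92, SE 0.14), ITGB5 (0.36, SE 0.09), ITGB3 (0.33, SE 0.11) and ITGA6 (0.25, SE 0.09) and lower for ITGA2 (-0.38, SE 0.07) and ITGA5 (-0.36, SE 0.05), with limma adjusted p of 0.0324 at most. That is 6 of 10 subunits, where 40.4% of all genes passed, 20.0% as higher and 20.4% as lower. Without both Rab25 FBS arrays these 6 still passed and ITGAV passed as well, at 0.12 (limma adjusted p = 0.0490), where 43.1% of all genes passed. ITGA6 missed the threshold when any of 14 arrays was left out, at 0.22 to 0.25 (limma adjusted p of 0.0508 to 0.0739), and for ITGB3 2 of the 7 probe sets gave -0.01 and -0.03. Signals also spread more widely over the conditions in experiment 1, for 9 of 10 subunits in each line, against 68.0% of all genes in pcDNA and 66.1% in Rab25 cells. The widest gap was that of ITGB2, with an SD over the 5 conditions of 0.608 in pcDNA and 0.718 in Rab25 cells in experiment 1 and of 0.037 and 0.032 in experiment 2. The median SD of all genes was 0.135 and 0.159 in experiment 1 and 0.099 and 0.121 in experiment 2.

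Whether a treatment acted alike in both experiments was tested with treatment by experiment terms. By limma's moderated F over the 4 treatments, 4 of 10 subunits passed, ITGB2 (adjusted p = 7.61e-04), ITGB5 (7.60e-04), ITGA6 (0.00639) and ITGAV (0.0340), where 16.9% of all genes did. Without both Rab25 FBS arrays, ITGB2 and ITGB5 passed, 2 of 10, where 9.31% of all genes did. The contrast was widest for FBS, where ITGA6, ITGB2, ITGAV and ITGB5 passed, 4 of 10 against 22.5% of all genes, each with a lower response in experiment 2 (12.9% of all genes). ITGA6 and ITGB2 passed without both Rab25 FBS arrays, where 12.8% of all genes did.

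ITGB2 showed the plainest pattern. In experiment 1 its starved signals were 7.19 and 7.02 in pcDNA and 8.16 and 7.90 in Rab25 cells, and the FBS signals were 8.06 and 8.69. The FBS arrays thus stood above starved cells by 0.95 and 0.66 in experiment 1. In experiment 2 the same differences were -0.08 and 0.04, since starved cells already lay at 8.04 and 8.14 in pcDNA and at 8.51 and 8.66 in Rab25 cells. The difference in FBS response, experiment 2 minus experiment 1, was -0.82 (SE 0.17, limma adjusted p = 0.00432), and -0.81 (0.0363) without both Rab25 FBS arrays. With TGF beta in experiment 1, ITGB2 was at 6.57 in pcDNA and 6.79 in Rab25 cells, -0.53 and -1.24 from starved cells, and with IGF it was at 6.58 and 7.40, -0.53 and -0.63 from starved cells. In experiment 2 all 4 of these differences lay between -0.08 and -0.02. The difference between experiments was 0.83 for TGF beta (limma adjusted p = 0.0706) and 0.56 for IGF (0.160), and neither passed.

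ITGA6, the laminin receptor chain, was at 12.01 in pcDNA and 11.89 in Rab25 cells with FBS in experiment 1, against starved signals of 11.27, 11.34, 11.37 and 11.38. In experiment 2 it was at 11.55 and 11.46 with FBS, against 11.83 and 11.86 in starved pcDNA and 11.63 and 11.52 in starved Rab25 cells. The FBS arrays were thus the highest of the line in experiment 1 and below starved cells in experiment 2. The difference between experiments was -0.82 (SE 0.14, limma adjusted p = 0.00139), and -0.84 (0.0132) without both Rab25 FBS arrays. Its other probe set gave -1.22 (limma adjusted p = 0.008 over probe sets). For ITGAV the FBS difference was 0.12 in pcDNA and 0.49 in Rab25 cells in experiment 1 and -0.27 and -0.05 in experiment 2, a difference of -0.47 (SE 0.10, limma adjusted p = 0.00526). It did not pass without both Rab25 FBS arrays (-0.43, 0.0516).

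ITGB5 stood out with IGF. In experiment 1 its IGF signals were 11.26 in pcDNA and 10.71 in Rab25 cells, the lowest of each line, against starved signals of 11.97 and 11.88 in pcDNA and of 11.76 and 11.62 in Rab25 cells. In experiment 2 the IGF signals were 12.27 and 11.67, against 12.25 and 12.29 and against 11.86 and 11.88. IGF thus lay -0.67 and -0.98 from starved cells in experiment 1 and close to them (-0.003) and at -0.20 in experiment 2. The difference between experiments was 0.72 (SE 0.11, limma adjusted p = 0.0073), 1 of 10 subunits where 1.42% of all genes passed, 1.08% as higher. A second probe set of ITGB5 gave 0.86 (0.0086 over probe sets), whereas the 2 others gave 0.05 and 0.35 and did not pass. The call of ITGB5 was lost without any 1 of the 4 IGF arrays and with median centring (0.70, limma adjusted p = 0.056). Its FBS term (-0.33, limma adjusted p = 0.0437) missed the threshold when any of 18 arrays was left out, and without both Rab25 FBS arrays it was -0.39 (0.0965). With EGF and with TGF beta, 0 of 10 subunits differed between experiments (0.0838% and 0.402% of all genes), with 1 and 3 subunits and 740 and 914 genes at an unadjusted p under 0.05 in limma.

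**Figure D3:**
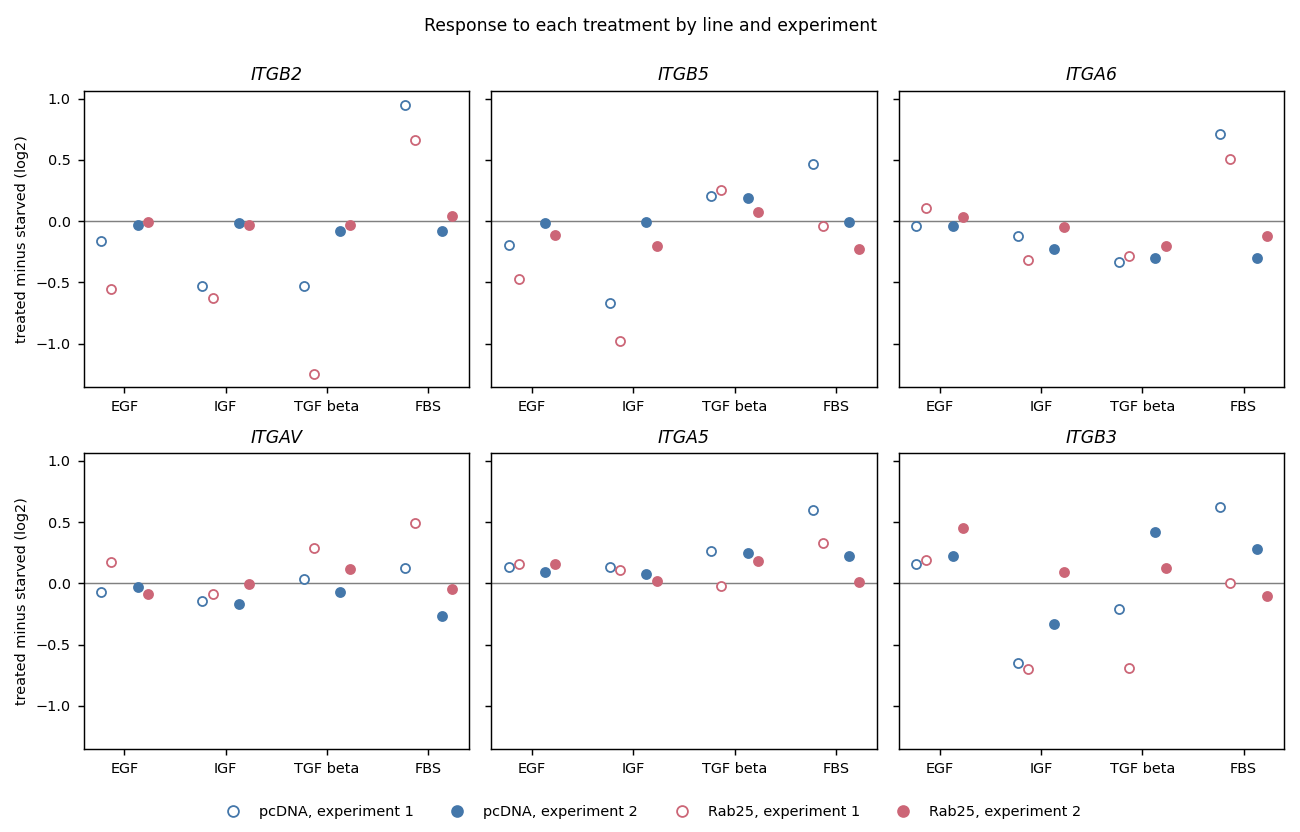
Signal of treated minus starved cells on the log2 scale (vertical axis) for 6 subunits and 4 treatments (horizontal axis), with 1 circle per line and experiment, open for experiment 1 and filled for experiment 2. For ITGB2 the open circles run from -1.24 to 0.95 while the filled circles lie between -0.08 and 0.04.

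Probe sets of 1 gene can read different transcripts, and 5 of the subunits had more than 1. ITGB1 had 5, of which 4 were dim, with mean signals of 4.94 to 6.27, and differed between the lines by -0.02 to 0.10 with none past the threshold over probe sets. ITGA6 had 2, with mean signals of 11.49 and 10.76, which differed by -0.06 and 0.26 and did not pass. ITGB4 had 4, of which 1 at a mean of 5.03 was lower by -0.13 (limma adjusted p = 0.024 over probe sets) and the others lay between -0.05 and 0.03.

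**Figure D4:**
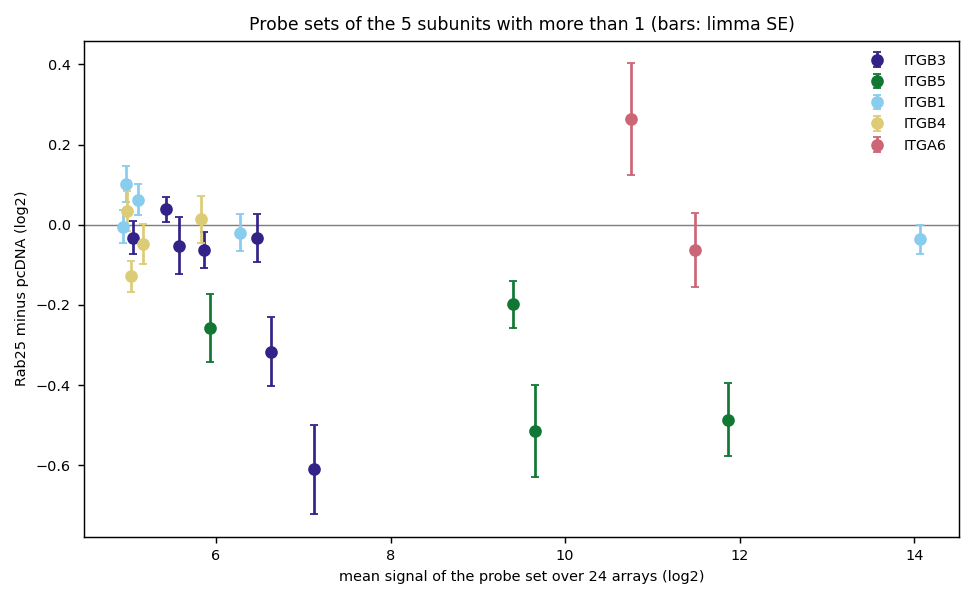
Difference Rab25 minus pcDNA on the log2 scale with limma's SE (vertical axis) against the mean log2 signal (horizontal axis) for each probe set of the 5 subunits with more than 1. All 4 sets of ITGB5 lie under 0, whereas of the 7 sets of ITGB3 those of highest signal, at -0.61 and -0.32, stand apart from the other 5.

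The genes whose signal followed each called subunit most closely were taken by Pearson r over the 24 arrays, which share lines, experiments and treatments, so r is a description and carries no test. For ITGB5 these were THBS1, a matrix protein that integrins bind (r = 0.94), PLXNA1 (0.93) and SLC1A3 (0.92). For ITGB2 they were TNFRSF6B (0.95), IGFBP6 (0.93) and FJX1 (0.93). ITGA2 was followed by ASAP2, FXR1 and the IGF receptor gene IGF1R (0.90, 0.90 and 0.89), and ITGA5 by PLEKHO1, FAM234B and TNIK (0.90, 0.90 and 0.89). ITGAV was followed by CEP63, PIK3R4 and CFLAR (0.91, 0.87 and 0.87), and ITGB3 by ANPEP, CD82 and VAMP1 (0.87, 0.86 and 0.84). The median absolute r over all genes lay between 0.222 and 0.346 for these 6 subunits.

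Of the 13 other integrin subunits measured, 2 differed between the lines over all conditions, where 24.7% of all genes did. ITGAE, the alpha chain that pairs with ITGB7, was lower by -0.23 (SE 0.05, limma adjusted p = 0.00124), and ITGA2B by -0.15 (SE 0.05, limma adjusted p = 0.0372). They stood at -0.21 and -0.17 without both Rab25 FBS arrays, and both still passed. Apart from ITGAE, at percentile 84.0, these genes lay at percentile 36.3 (ITGAX) or lower, and ITGB7 at 17.5. The median difference of the 13 was 0.00130.

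Of 30 measured matrix ligands of integrins, 7 were higher and 5 lower in Rab25 cells, where 9.14% of all genes were higher and 15.5% lower. Fibronectin, FN1, was higher by 0.51 (SE 0.04, limma adjusted p = 1.34e-07), the laminin chain LAMC1 by 0.65 (SE 0.09) and tenascin, TNC, by 0.62 (SE 0.09), while osteopontin, SPP1, was lower by -1.23 (SE 0.19). The ligand FN1 was higher where its receptor chain ITGA5 was lower, but other ligands were lower as well, among them SPP1 and THBS1 (-1.06). Whether ligands and receptor chains move together was not tested. Without both Rab25 FBS arrays, 5 ligands were higher and 5 lower (9.82% and 14.8% of all genes), FN1 stood at 0.53 and SPP1 at -1.65, and COL3A1 went from 1.26 (limma adjusted p = 5.34e-05) to -0.07 (0.793). COL1A1 went from 1.51 to 0.99.

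Of 30 measured adaptor and focal adhesion genes, 6 were higher and 6 lower, where 9.14% and 15.5% of all genes were. Without both Rab25 FBS arrays these counts were 9 and 3, where 9.82% and 14.8% of all genes were higher and lower. RSU1, a partner of the ILK complex, was lower by -0.20 (SE 0.03), the scaffold NEDD9 by -0.99 (SE 0.20) and SHARPIN, an integrin inhibitor, by -0.17 (SE 0.04). The guanine exchange factor DOCK1 was higher by 0.23 (SE 0.04), the integrin associated protein CD47 by 0.16 (SE 0.03) and the tensin TNS1 by 0.50 (SE 0.12), with a limma adjusted p of 0.00578 at most among these 6.

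Of 29 measured genes of integrin trafficking, 8 were higher and 9 lower, RAB25 itself included, where 9.14% and 15.5% of all genes were. With both Rab25 FBS arrays left out 8 were higher and 8 lower, beside 9.82% and 14.8% of all genes. CLIC3, which acts in the return of integrins from late endosomes, was higher by 1.38 (SE 0.15), and the recycling ATPase EHD3 by 0.69 (SE 0.08). The clathrin adaptor AP2M1 was lower by -0.29 (SE 0.03), the late endosome GTPase RAB7A by -0.30 (SE 0.03) and the endosome tethering gene VPS33B by -0.39 (SE 0.05), all at a limma adjusted p of 8.45e-06 or lower. The median over the list was -0.017, beside -0.0141 for all genes.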

How the data were processed

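The values are log2 signals per probe set, deposited by the authors in 1 table of 24 arrays that lay on a common scale as deposited (4.18 to 15.39). The submitters' processing notes name MAS5 and RMA with no role, order or version, so how the deposited log2 values were normalized is not given in the sources used here. Of 22930 probe sets, 524 were controls, 19415 carried 1 gene symbol, 125 several and 2866 none, by the platform annotation. Probe sets with 1 symbol gave 11940 genes, each by its probe set of highest mean.

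All 24 arrays were fitted in limma 3.58.1 (R 4.3.3) with 10 groups of line and treatment and the experiment as a block, leaving 13 residual degrees of freedom, and p-values were adjusted over the 11940 genes by Benjamini-Hochberg at 0.05. Responses between experiments came from a second fit with treatment by experiment terms. The scripts were tested on simulated data. The experiment number is the replicate number of the labels, and it pairs arrays across groups because the labels say it marks an experiment. Deviations of same-numbered arrays correlated at a median r of 0.66 over 45 pairs of groups (0.09 to 0.86, 44 of them over 0.1).

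All 10 subunits are described in every comparison. Of the other lists, up to 6 called genes of lowest p between the lines and up to 3 in other comparisons were named. Up to 4 of each marker list were named by size, with examples of markers that were not raised, and all identity genes were named. For each called subunit the 3 genes of highest r were named. The members and lists were chosen with earlier results of these data known. Alternatives were other scalings, array weights, a filter on low values, a median over the probe sets of each gene, no block, each experiment alone and arrays left out. The number of arrays limits the precision.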

Additional observations from a re-analysis of the deposited data

Results flagged for a closer look

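ITGB4 was at 6.02 on the Rab25 starved array 2-2, while the other 3 arrays of that group lay at 5.80, 5.80 and 5.83, and the gap to the nearest array was 0.856 of the group's range, above Dixon's critical value for 4 arrays. Of 20 sets of 1 subunit and 1 starved group looked at, this was the 1 that stood out, and chance alone gives about 1 in 20.

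Some responses differed between the experiments by a test of the difference itself. For IGF this was ITGB5, at 0.72 (limma adjusted p = 0.0073). For FBS these were ITGA6 at -0.82 (0.00139), ITGB2 at -0.82 (0.00432), ITGAV at -0.47 (0.00526) and ITGB5 at -0.33 (0.0437), all as experiment 2 minus experiment 1 on the log2 scale.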

How the results depend on the processing

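Between the lines over all conditions, 4 to 7 of the 10 subunits passed under the other settings and 6 with any 1 array left out, against 6, and between the experiments 5 to 8, against 6. The replicate block is the experiment. With no replicate block, ITGA5 and ITGB2 were lost between the lines, and the counts were 1 in starved cells (2 with it), 0 for FBS over both lines (1) and 0 for FBS in pcDNA cells (1). With array weights they were 5 in starved cells, 2 for IGF (0) and 0 for FBS over both lines and in pcDNA cells. With treatment by experiment terms they were 5 in starved cells, 3 for IGF, 2 for TGF beta (0), 3 for FBS over both lines, 3 in pcDNA cells and 1 in Rab25 cells (0). With each experiment alone, every treated group had 1 array, and only the starved arrays of each line were replicated. Counts from those fits are therefore not listed by comparison. The ranges over settings for the line and treatment comparisons do include them. Without the 2 arrays of lowest median, an alternative chosen after seeing the data as was the recount of gene and marker lists without both Rab25 FBS arrays, the counts were 1 for IGF, 3 for FBS over both lines, 1 in Rab25 cells and 2 by the F test between experiments (4), which also gave 2 with median centring and 2 without both Rab25 FBS arrays. With 1 array left out at a time, the counts ran from 1 to 3 in starved cells, 0 to 1 for IGF, 0 to 4 for FBS over both lines, 0 to 2 in pcDNA cells, 0 to 1 in Rab25 cells and 2 to 5 by the F test. The numbers of all genes called are given below only as ranges over the settings. The subunit counts by setting thus show how calls moved, and not how the subunits compare with all genes. Over other probe sets, ITGB3 between experiments gave -0.012 and -0.029, ITGB3 between lines gave 0.038 and ITGB4 between lines -0.13, each with the sign turned. Of all log2 differences of the subunits recomputed, 5478 kept direction and side of the threshold, 353 changed sign while past the threshold in neither fit, 86 lost it, 81 passed it anew and 4 changed sign with 1 of the fits past it, and the cause of these changes was not tested. Among the 353, with experiment 2 alone, FBS over both lines gave ITGA6 at -0.21 (0.20 over both experiments) and ITGB2 at -0.02 (0.39). The number of genes called moved by more than 1.5 times under some settings, from 1665 to 3858 between the lines (2944), 730 to 3273 in starved cells (1767), 10 to 1298 for IGF (323), 55 to 498 for TGF beta (191), 367 to 4109 for FBS over both lines (2057), 56 to 3080 in pcDNA cells (806), 40 to 2405 in Rab25 cells (922), 3 to 202 for FBS between lines (25), 0 to 17 for TGF beta between lines (0) and 0 to 106 for EGF (0). Between experiments it ran from 1 to 16 for EGF (10), 13 to 318 for IGF (169), 7 to 85 for TGF beta (48), 1530 to 2909 for FBS (2682) and 1037 to 2377 by the F test (2013). Array scaling moved the share of higher calls from 37.6% to 52.3% in starved cells (quantile) and from 37.3% to 54.8% for FBS and 49.6% to 63.1% between experiments (median centring).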

Other observations

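TGF beta left all 10 subunits short of the threshold, while 3 of 30 integrin ligands rose over both lines, the collagen IV chains COL4A1 by 1.56 and COL4A2 by 1.09 and the matricellular gene CCN2 by 0.65 (limma adjusted p of 0.0317 at most), where 1.60% of all genes passed. Of 30 adaptor and focal adhesion genes, 3 rose, the scaffold NEDD9 by 2.38, the kindlin FERMT1 by 1.15 and the tensin TNS1 by 0.94. With IGF, the tensin TNS3 fell by 0.55 (limma adjusted p = 0.00875) and the kindlin FERMT2 rose by 0.27 (0.0299), 2 of 30 adaptor genes where 2.71% of all genes passed.

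The ligand transcripts COL3A1, COL1A2 and COL6A3 were higher by 6.67, 4.25 and 3.22 on the Rab25 FBS arrays than in starved Rab25 cells. In that comparison 6 of 30 ligands and 7.72% of all genes passed. In pcDNA cells 0 of 30 ligands and 6.75% of all genes passed in limma, with 7 of the 30 at an unadjusted p under 0.05. Both Rab25 FBS arrays carry the raised mean of fibroblast markers given above, and COL3A1 and COL1A2 are on that marker list. In Rab25 cells the serum and these marker signals cannot be told apart, and the part of other cells in these differences was not tested. In pcDNA cells with FBS, the kindlin FERMT1 rose by 0.73 and the recycling ATPase EHD1 by 0.66, while the adaptor LIMS1 fell by 0.42 and the endosomal genes RAB11FIP2 and RAB5A fell by 0.52 and 0.34.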
